A study of Homo sapiens with 8 samples.

Results

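The S100 calcium-binding proteins were examined in CFPAC-1 cells, a long-established line from a human pancreatic ductal adenocarcinoma. The 10 genes S100A2, S100A4, S100A6, S100A8, S100A9, S100A10, S100A11, S100A14, S100A16 and S100P were taken by symbol from a table of 58870 genes, and all 10 were present. RNA sequencing covered 4 libraries of cells with an empty vector and 4 libraries of cells with an ADRA2A transgene. The cells of all 8 libraries were grown untreated for 72 hours in IMDM medium with 10% FBS and 1% penicillin–streptomycin. The ADRA2A product, the alpha-2A adrenergic receptor, binds adrenaline and noradrenaline and couples to Gi, and the comparison asked how its overexpression altered these cells. The labels gave neither the vector and its promoter, nor whether a single clone or a pool was used, nor whether the 4 libraries of a group came from separate cultures, so p-values measure the spread between these libraries, which may be technical.

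S100 proteins are small proteins that carry a pair of EF-hand motifs, usually form dimers, and expose a binding surface for target proteins when they take up calcium. They have no enzyme activity of their own. Inside cells they bind cytoskeletal proteins and annexins, and some are released and act on receptors such as RAGE and TLR4. Several of them, S100P, S100A2, S100A4 and S100A6 among them, have been studied as markers in pancreatic cancer.

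Libraries held between 14427040 and 17528910 estimated counts. ADRA2A itself had 0 counts in all 4 empty-vector libraries and 112, 142, 154 and 172 counts in the ADRA2A libraries. Epithelial and ductal markers were abundant, with 7 of 7 tested and a summed level of 11837 to 12391 counts per 1e6 counts (CPM) in the empty-vector libraries and 11521 to 12626 CPM in the ADRA2A libraries. Of these 7, KRT7 (-0.43 on the log2 scale), CDH1 (-0.33), SOX9 (-0.21) and KRT18 fell, KRT19 (0.20) and EPCAM (0.11) rose and KRT8 did not pass the test described next, and their part in the S100 differences was not tested. The 8 myeloid markers summed to at most 2.91 CPM in any library, with FCN1 and ELANE at 0 throughout, and the 7 fibroblast markers to at most 2.27 CPM. The 4 endothelial markers summed to at most 3.35 CPM, and 2 of them were tested. PECAM1 rose (1.66 on the log2 scale, from a mean of 0.773 to 2.44 CPM). KDR fell (-1.35, from a mean of 1.23 to 0.482 CPM). All CPM values carry TMM scaling, edgeR's trimmed-mean library adjustment, and differences are given as log2 fold changes of ADRA2A over empty vector with their standard error (SE). Tests were edgeR's quasi-likelihood test over all 14785 genes that passed a filter on low counts, with Benjamini-Hochberg adjustment and a threshold of 0.05.

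Of the 10 S100 genes, 8 were tested, 4 fell, 1 rose and 3 did not pass the threshold. The 4 that fell were S100A2, S100A6, S100A14 and S100A16, and the 1 that rose was S100A11. S100A4, S100A10 and S100P did not pass, and S100A8 and S100A9 were too low to be tested. The 8 tested genes had at least 20 counts in every library of both groups. Among all genes tested, 21.1% were called lower and 21.6% higher, against 50% and 12.5% of the 8 S100 genes. The median log2 fold change was -0.21 over the 8 S100 genes and 0.00062 over all genes tested. The 4 ADRA2A libraries lay below the 4 empty-vector libraries in 4 of the 8 genes, against 19.5% of all genes tested. These were the 4 genes called lower, and the call and the separation rest on the same values. In 0 of the 8 did all lie above, against 19.7% of all genes tested. In bulk RNA a lower level in each cell and fewer cells expressing the gene cannot be told apart.

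S100A2 showed the widest difference among the 8 tested members. It encodes a mainly nuclear S100 protein of basal epithelial cells. The empty-vector libraries had 11.5, 14.5, 14.9 and 15.1 CPM and the ADRA2A libraries 5.74, 5.81, 4.92 and 5.25 CPM. The groups were far apart, and empty-vector replicate 1 stood below the other 3 empty-vector libraries. The means were 14 ± 1.7 and 5.43 ± 0.42 CPM (SD, n = 4 each), which edgeR fitted as a log2 difference of -1.37 with an SE of 0.11 (edgeR adjusted p = 9.02e-09), or 2.58-fold lower. S100A2 was the 1 member that met both the threshold and a 2-fold change, which 2.11% of all genes tested did downwards and 2.55% upwards. Only 1.26% of the genes tested had a lower log2 fold change.

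S100A6 was the most abundant of the 10 genes. It encodes calcyclin, a protein of proliferating and secretory cells that binds annexins and the ubiquitin ligase component CACYBP. Its levels were 994, 1020.2, 974 and 958 CPM in the empty-vector libraries and 728, 791, 777 and 668 CPM in the ADRA2A libraries. The lowest empty-vector library was well above the highest ADRA2A library. The log2 fold change was -0.41 with an SE of 0.042 (edgeR adjusted p = 1.5e-07).

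S100A14 and S100A16 are neighbouring genes that encode epithelial S100 proteins with reduced calcium binding in part of their EF-hands. S100A14 had 54.1, 56.7, 53.5 and 46.9 CPM with empty vector and 39.7, 40.3, 45.8 and 37.3 CPM with ADRA2A. The groups of S100A14 came close, since its lowest empty-vector value of 46.9 CPM was next to its highest ADRA2A value of 45.8 CPM. Its log2 fold change was -0.37 with an SE of 0.066 (edgeR adjusted p = 0.000136). S100A16 had 333, 342, 349 and 345 CPM with empty vector and 314, 318, 320.4 and 298 CPM with ADRA2A. This was a small difference between groups with little spread, a log2 fold change of -0.13 with an SE of 0.034 (edgeR adjusted p = 0.00359).

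**Figure D1:**
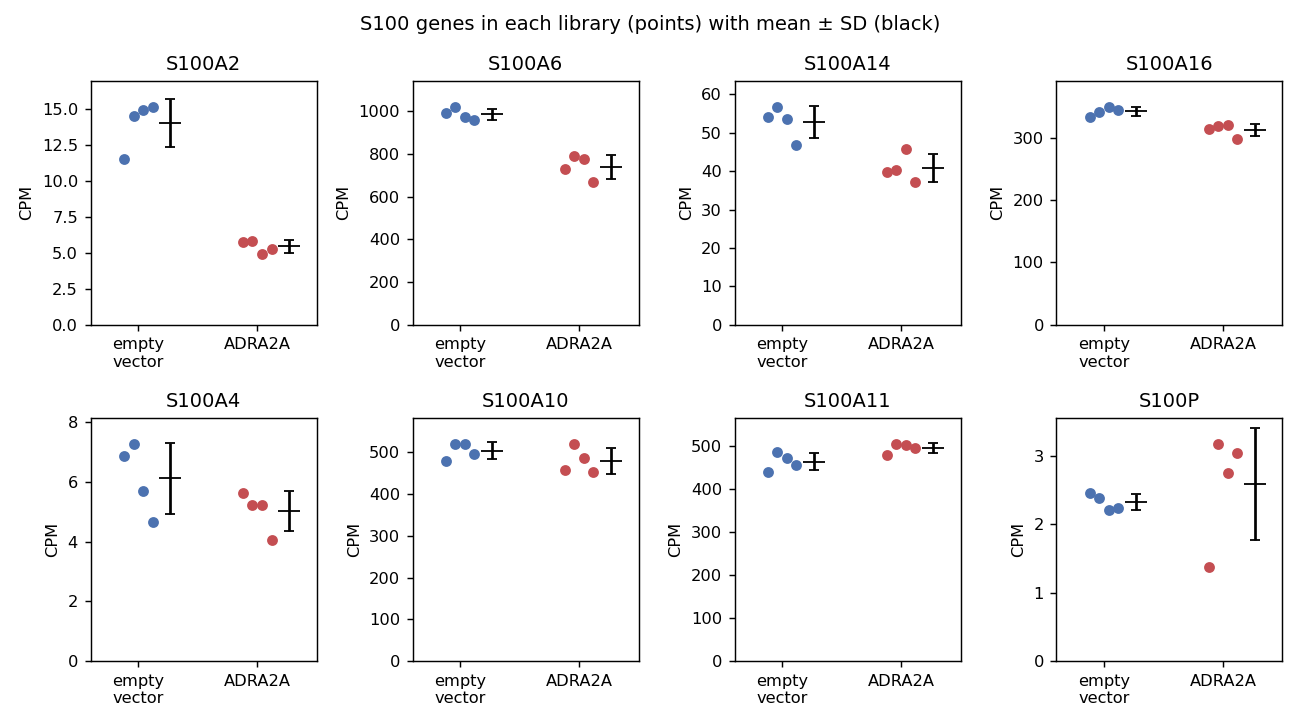
CPM of the 8 tested S100 genes in each library (points; y axes start at 0), with the mean and SD of the 4 libraries of a group in black. The ADRA2A points of S100A2, S100A6, S100A14 and S100A16 all lie below the empty-vector points, while the groups of the other 4 genes overlap.

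All 4 genes that fell lie on the minus strand of chromosome 1, within 82.4 kb of each other. The same strand also holds S100A4, S100A10 and S100A11, which were not called lower. Positions are those of GENCODE release 44 on GRCh38. S100A6 (ENSG00000197956.10) spans 153534599 to 153536244, S100A2 (ENSG00000196754.10) 153561108 to 153567890, S100A16 (ENSG00000188643.11) 153606886 to 153613145 and S100A14 (ENSG00000189334.9) 153614255 to 153616986. Their promoter windows are shown because these neighbours moved in the same direction, so that their starts can be compared. Each is the 250 bases before the start of the MANE Select transcript in RefSeq (GRCh38.p14), on the gene's strand, 5′ to 3′. The windows are chr1:153565845-153566094 for S100A2, chr1:153535992-153536241 for S100A6, chr1:153616326-153616575 for S100A14 and chr1:153613138-153613387 for S100A16. These transcripts start inside the gene spans above. The windows of S100A2, S100A6 and S100A14 therefore lie within those spans, and that of S100A16 does so in part. Capitals mark every match, on either strand, to 5 promoter motifs: the TATA box (TATAAA), the GC box (GGGCGG), the AP-1 site (TGANTCA), the cAMP response element (TGACGTCA) and the CCAAT box, spelled as its name.
S100A2: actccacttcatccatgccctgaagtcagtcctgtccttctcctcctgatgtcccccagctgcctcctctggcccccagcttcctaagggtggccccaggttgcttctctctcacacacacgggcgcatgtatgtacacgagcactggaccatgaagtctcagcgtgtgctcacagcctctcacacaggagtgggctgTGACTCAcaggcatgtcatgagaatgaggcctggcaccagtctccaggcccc
S100A6: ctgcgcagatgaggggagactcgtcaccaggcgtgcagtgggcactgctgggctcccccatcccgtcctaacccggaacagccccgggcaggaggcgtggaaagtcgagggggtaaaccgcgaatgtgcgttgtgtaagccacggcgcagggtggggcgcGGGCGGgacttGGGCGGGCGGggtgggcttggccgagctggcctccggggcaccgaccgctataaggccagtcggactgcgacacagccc
S100A14: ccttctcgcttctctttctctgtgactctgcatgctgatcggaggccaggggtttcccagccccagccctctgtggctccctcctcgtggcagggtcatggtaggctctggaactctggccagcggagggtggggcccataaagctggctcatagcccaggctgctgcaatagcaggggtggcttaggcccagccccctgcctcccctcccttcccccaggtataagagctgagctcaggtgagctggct
S100A16: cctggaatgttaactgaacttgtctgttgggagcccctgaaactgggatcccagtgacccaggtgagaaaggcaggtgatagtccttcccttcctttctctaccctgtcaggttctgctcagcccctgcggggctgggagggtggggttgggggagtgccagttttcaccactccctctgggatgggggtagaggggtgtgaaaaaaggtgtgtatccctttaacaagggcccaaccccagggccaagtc
The 4 windows did not share a motif from this set. Only exact letters were matched, and the variant TATAAG, present in the S100A6 and S100A14 windows, was not in the set. S100A2 had 1 match to TGANTCA, 52 to 46 bases before the start, and such a match was in 6.57% of the 35116 RefSeq promoter windows of the same length. S100A6 had 3 matches to GGGCGG, of which 2 overlapped, and 42.6% of all windows had at least 1. S100A14 and S100A16 had no match to any of the 5 motifs. The windows also differed in CpG content, with 24 CpG dinucleotides for S100A6, 4 for S100A2, 4 for S100A14 and 1 for S100A16, against a median of 11 over all windows. None of the 10 S100 windows had a match to TGACGTCA, which 1.65% of all windows had. TATAAA was in 4 of the 10 windows, those of S100A4, S100A8, S100A9 and S100P, against 10.7% of all windows. These matches describe letters in the windows and are not measured binding sites.

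S100A10 and S100A11 are the annexin-binding members. S100A10 (p11) is locked in a calcium-ready shape and forms a tetramer with annexin A2 at the cell membrane, where it binds tissue plasminogen activator and plasminogen, and S100A11 binds annexin A1. S100A10 had 479, 519, 519 and 495 CPM with empty vector and 457, 519, 485 and 451 CPM with ADRA2A. Values of the 2 groups overlapped for S100A10, at a log2 fold change of -0.074 (95% interval -0.16 to 0.014; edgeR adjusted p = 0.167). Without ADRA2A replicate 2, the highest library of its group, S100A10 passed the threshold at a log2 fold change of -0.11 (edgeR adjusted p = 0.0279).

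S100A11 had 441, 487, 474 and 456 CPM with empty vector and 480.1, 506, 503 and 496 CPM with ADRA2A. One empty-vector library, replicate 2, lay above the lowest ADRA2A library, so the groups overlapped by that library. S100A11 rose by a log2 fold change of 0.095 with an SE of 0.035 (edgeR adjusted p = 0.0339), or 6.8%. This call was lost without empty-vector replicate 1 (adjusted p = 0.141), empty-vector replicate 4 (0.0974), ADRA2A replicate 2 (0.085) or ADRA2A replicate 3 (0.0786), and with upper quartile scaling (0.0859). Within each library, counts of S100A10 were between 15.4% and 17.2% of those of ANXA2, the annexin A2 gene. The log2 ratio of S100A10 to ANXA2 was -2.66 ± 0.029 with empty vector and -2.63 ± 0.066 with ADRA2A (SD, n = 4 each; two-sided exact permutation test, p = 0.514, where the smallest possible is 0.0286).

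S100A4 and S100P are the members most often tied to cell motility. S100A4 binds non-muscle myosin heavy chain, and S100P binds ezrin and the receptor RAGE. Both were scarce here. S100A4 had 6.85, 7.26, 5.69 and 4.65 CPM with empty vector and 5.61, 5.21, 5.21 and 4.05 CPM with ADRA2A, so that the groups overlapped. The change was -0.29 on the log2 scale, with a 95% interval of -0.61 to 0.043 (edgeR adjusted p = 0.154), which leaves room for a fall as large as that of S100A6. Without 1 library it ranged from -0.39 (without empty-vector replicate 4, edgeR adjusted p = 0.0526) to -0.19 (without ADRA2A replicate 4, adjusted p = 0.365). The S100A4 and S100A3 genes overlap on the same strand, but S100A3 had at most 20 counts in any library.

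S100P (ENSG00000163993.7) is the 1 member outside chromosome 1, at 6693878 to 6697170 on the plus strand of chromosome 4. It had 42, 35, 38 and 34 counts with empty vector (2.46, 2.38, 2.21 and 2.23 CPM) and 20, 48, 48 and 48 counts with ADRA2A (1.38, 3.17, 2.75 and 3.04 CPM). ADRA2A replicate 1 was below every empty-vector library and the other 3 ADRA2A libraries were above every one. The log2 fold change was 0.16 with a 95% interval of -0.33 to 0.66 (edgeR adjusted p = 0.614). It was 0.36 without ADRA2A replicate 1 (edgeR adjusted p = 0.184), 0.058 without ADRA2A replicate 2 (adjusted p = 0.884) and 0.08 without ADRA2A replicate 4 (adjusted p = 0.843).

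S100A8 and S100A9 form calprotectin, the metal-binding heterodimer of neutrophils and monocytes that inflamed epithelium can also make. S100A8 had 0 counts in all 8 libraries, which allows up to 0.171 to 0.208 CPM depending on the library, counting error only. S100A9 had 2, 2, 1 and 2 counts with empty vector and 3, 1, 3 and 1 counts with ADRA2A. Both were at or under the 3 counts that a count of 0 allows, so no difference was detectable at this depth and no ratio of S100A8 to S100A9 could be formed.

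**Figure D2:**
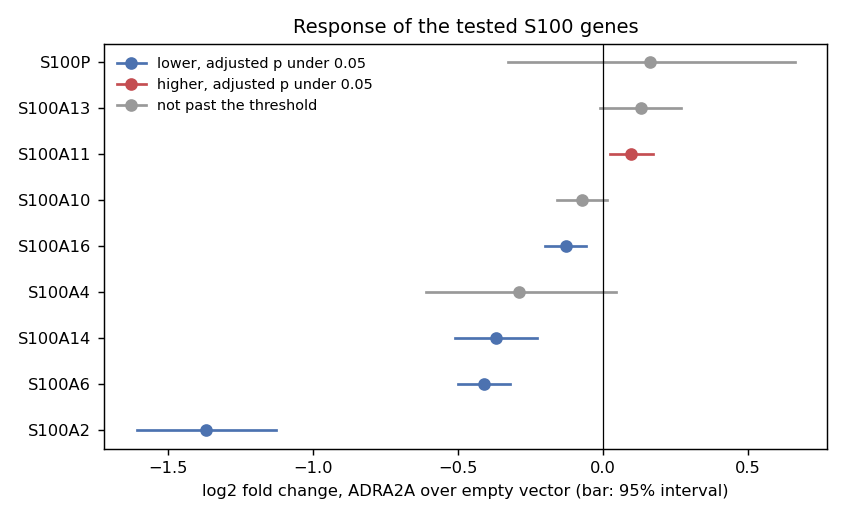
Log2 fold change (points) and unadjusted 95% interval (bars) of the 8 tested S100 genes and of S100A13, another family gene, coloured by the call at an adjusted p-value under 0.05. S100A2 stands apart at -1.37, S100A6 and S100A14 lie near -0.4, and the intervals of S100P, S100A13, S100A10 and S100A4 cross 0.

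The members spanned a wide range of levels. On the scale of mean CPM per kilobase of the MANE Select transcript, the empty-vector order was S100A6 at 2273, S100A11 at 825, S100A10 at 749.9, S100A16 at 292, S100A14 at 50.1, S100A2 at 14.3, S100A4 at 11.9, S100P at 4.92 and S100A9 at 0.193, with S100A8 at 0. In the ADRA2A libraries S100A6 was again first at 1707 CPM per kilobase, but S100A2 at 5.56 had moved below S100A4 at 9.78 and next to S100P at 5.49. This change of order depends on the length scale. In mean CPM with ADRA2A, S100A2 at 5.43 stayed above S100A4 at 5.02 and S100P at 2.58. The transcripts are short, 408 bases for S100A8 to 1172 bases for S100A16, and the fragment length was not given, so levels per length are approximate. Among all 954 tested genes with transcripts of 434 to 1172 bases, the range of the tested members, 21.9% were called lower and 17.6% higher, at a median log2 fold change of -0.027.

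Summed over the 10 genes, S100 transcripts made up 2372 ± 61.4 CPM with empty vector and 2081 ± 104 CPM with ADRA2A (SD, n = 4 each). The libraries of the sum did not overlap, with 2321 to 2449 CPM against 1961 to 2188 CPM. The difference in the sum was -290.4 CPM, and that of S100A6 alone was -246 CPM. The other 9 genes together had 1385 ± 47.7 and 1340.4 ± 49.9 CPM (SD, n = 4 each), a difference of less than the spread between replicates. S100A6 was 41.6% of the summed S100 CPM with empty vector and 35.6% with ADRA2A.

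Within a group, the same library was the lowest or the highest for several members. The shares over all genes tested were not computed, so these counts are description only. ADRA2A replicate 4 was the lowest of its group for 5 of the 8 tested genes (S100A10, S100A4, S100A6, S100A14 and S100A16), and replicate 2 was the highest for 5 of 8 (S100A10, S100A11, S100A6, S100A2 and S100P). With empty vector, replicate 2 was the highest for 5 of 8 and replicate 1 the lowest for 4 of 8. Empty-vector replicate 4 was the lowest for 3 of 8 (S100A4, S100A6 and S100A14). For S100A6 the coefficient of variation was 2.71% with empty vector and 7.56% with ADRA2A.

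Whether 2 members responded differently was compared through their log2 count ratio within each library, for all 28 pairs of the 8 tested genes. The level of S100A2 relative to each of the other 7 was lower with ADRA2A, by a log2 difference of 0.94 (against S100A6) to 1.45 (against S100A11), without overlap between the groups. For all 7 the two-sided exact permutation test gave 0.0286, the smallest p that 4 against 4 allows. This was not particular to S100A2, since some pairs without it also reached that p without overlap and others did not. Among those that did were S100A11 to S100A6 (a change of 0.51) and S100A6 to S100A16 (-0.28). Adjusted over the 28 pairs, a p of 0.0286 became 0.0571, so 0 pairs were under 0.05. At that floor the adjusted value depends on how many pairs reach it. A larger shift in a pair could not have brought it under 0.05, so this threshold cannot decide whether members differed. The ratio of S100A6 to S100A14 changed by -0.042 (exact permutation test, adjusted p = 0.567). The ratio of S100A10 to S100A11, which lie close together, changed by -0.17 with no overlap between the groups (exact permutation test, adjusted p = 0.0571).

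By sequence, the 10 genes are diverged paralogs with coding parts of 273 to 345 bases. Identity over an alignment of the coding sequences ran from 42.1% to 69.6% over 45 pairs, with a median of 51.5%. The closest pair was S100A2 and S100A4 at 69.6%, whose log2 fold changes were -1.37 and -0.29. S100A2 and S100A6 shared 61.3%, and S100A4 and S100A6 60.6%. All 80 deposited entries of the 10 genes were whole numbers, so none held a fractional part of a read shared with another gene.

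Position on chromosome 1 was compared with the response. The S100 cluster runs from S100A10 at 151982915 to S100A1 at 153632039. From S100A6 to S100A14, 5 S100 genes were tested (S100A6, S100A4, S100A2, S100A16 and S100A14) and their log2 fold changes were all below 0, with 4 of them called. The 1 other tested gene inside that stretch, the non-coding BX470102.2, had 0.58 (edgeR adjusted p = 0.0742). Beyond S100A14, S100A13 had a log2 fold change of 0.13 (edgeR adjusted p = 0.126). Over the whole cluster and 500 kb to each side, 28 other genes were tested, of which 6 were called higher and 3 lower, at a median of 0.066. This is 32.1% called, against 42.7% of all genes tested. Around S100P, 12 other genes were tested within 500 kb, with 2 called higher and 5 lower, or 58.3% called.

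**Figure D3:**
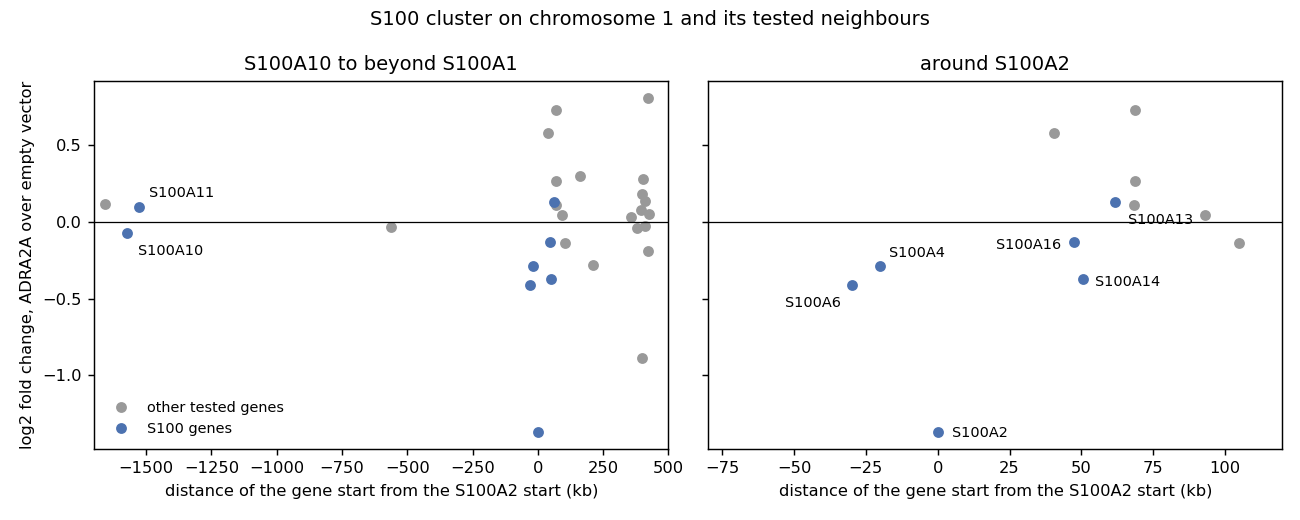
Log2 fold change of each tested gene against the distance of its start from the S100A2 start in kb, from just before S100A10 onwards (left; genes farther out are not shown) and around S100A2 (right), with S100 genes in blue and other genes in grey. The 5 S100 genes from S100A6 to S100A14 all lie below 0, S100A2 lowest, whereas S100A13 and most grey neighbours lie near or above it.

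The remaining family was nearly silent. Of 18 other S100 and S100-fused genes, 1 was tested, S100A13, which is involved in the release of fibroblast growth factor without a signal peptide. It had 63.2 ± 6.37 CPM with empty vector and 69.0 ± 5.58 CPM with ADRA2A (SD, n = 4 each), and it passed the threshold without empty-vector replicate 2 (log2 fold change 0.20, edgeR adjusted p = 0.0165), without ADRA2A replicate 4 (0.19, adjusted p = 0.0234) or with no filter (0.13, adjusted p = 0.0487). It did not pass in the other 12 alternative fits, with the lowest value, 0.086, without empty-vector replicate 1 (edgeR adjusted p = 0.346). S100A13 overlaps S100A1 on the opposite strand, and the use of strand was not given. The other 17 genes had at most 20 counts in any library, and 10 of them, S100B, S100A12 and S100A7A among them, had 0 counts in all 8.

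Receptors and binding partners of S100 proteins were examined as a list of 27 genes, of which 21 were tested. Among them 9 fell, 4 rose and 8 did not pass, at a median log2 fold change of -0.087. The share called was 61.9%, against 42.7% of all genes tested. Small shifts are called more readily in abundant genes, and genes at like levels were not compared, here or for the members. Among the receptors, TLR4, which responds to S100A8 and S100A9, had 13 ± 0.766 CPM with empty vector and 6.16 ± 0.698 CPM with ADRA2A (SD, n = 4 each). This was a log2 fold change of -1.07 with an SE of 0.11 (edgeR adjusted p = 8.98e-08). AGER, which encodes RAGE, had 4.80 ± 0.421 and 4.56 ± 0.595 CPM and a log2 fold change of -0.079 (edgeR adjusted p = 0.704). BSG, which encodes the S100A9 receptor basigin, had -0.0096 (edgeR adjusted p = 0.874) and ALCAM 0.056 (edgeR adjusted p = 0.142).

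Among the annexins, ANXA1 fell by 0.28 on the log2 scale, ANXA6 by 0.29 and ANXA2 by 0.11, whereas ANXA11 rose by 0.18. AHNAK, a large scaffold held at the membrane by S100A10 and annexin A2, fell by 0.17 (edgeR adjusted p = 0.0179). Its groups overlapped, at 1491 to 1691 CPM with empty vector and 1228 to 1536 CPM with ADRA2A. PLAT, which encodes tissue plasminogen activator, a ligand of S100A10, rose by 0.56, with a mean of 256 ± 27 CPM with empty vector and 379 ± 11.5 CPM with ADRA2A (SD, n = 4 each; edgeR adjusted p = 4.52e-08). CTSB, which encodes cathepsin B, a protease that S100A10 and annexin A2 hold at the cell surface, rose by 0.50. DLC1, which encodes a GTPase-activating protein that binds S100A10, fell by 4.28, the lowest value of the list (edgeR adjusted p = 1.03e-13). It had 15.3 ± 1.14 CPM with empty vector and 0.775 ± 0.251 CPM with ADRA2A (SD, n = 4 each). The ADRA2A libraries held only 9, 9, 13 and 18 counts, so the size of this fall rests on few counts. PLAU, the urokinase gene, had -0.034 (edgeR adjusted p = 0.471).

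Among the partners of the other members, MYH9, CACYBP and SUGT1 fell and S100PBP rose. MYH9, the non-muscle myosin bound by S100A4, had 2035 ± 22.1 CPM with empty vector and 1458 ± 46.8 CPM with ADRA2A (SD, n = 4 each), at a log2 fold change of -0.48 (edgeR adjusted p = 5.86e-11). CACYBP and SUGT1, partners of S100A6, fell by 0.26 and 0.20. EZR, the ezrin gene, had a log2 fold change of 0.065 (edgeR adjusted p = 0.0747) and IQGAP1 0.016. S100PBP, the S100P binding protein gene, rose by 0.21.

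**Figure D4:**
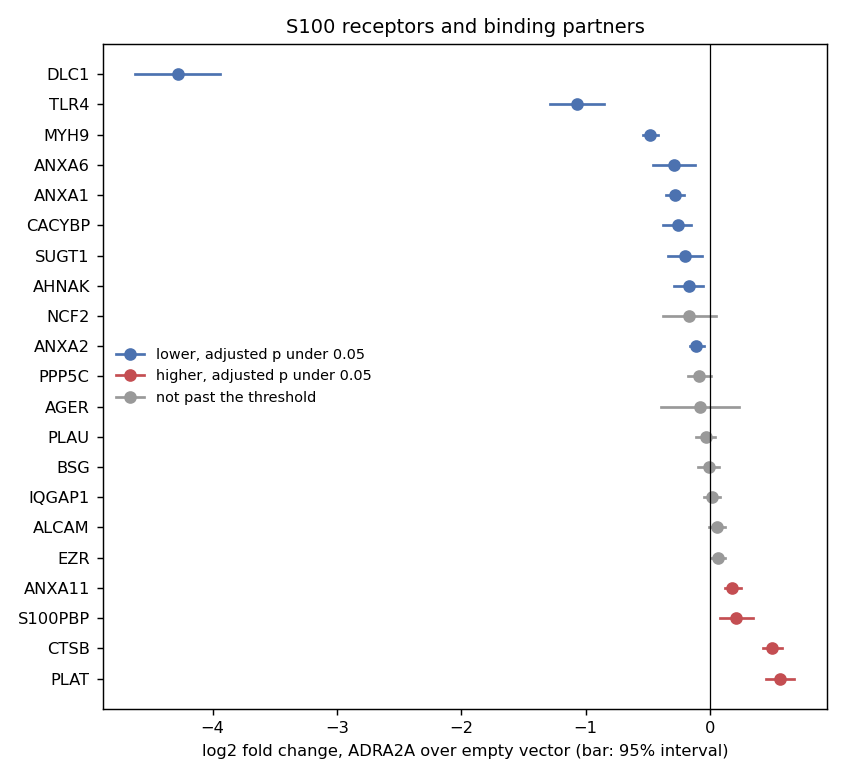
Log2 fold change (points) and unadjusted 95% interval (bars) of the 21 tested receptors and binding partners, coloured by the call at an adjusted p-value under 0.05. DLC1 at -4.28 and TLR4 at -1.07 lie apart from the rest, and PLAT at 0.56 is the highest.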

How the data were processed

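The authors deposited 1 table of RSEM estimated counts per gene for the 8 samples. STAR, cutadapt, RSEM and DESeq2 and the build hg38 are named in the submitters' processing notes, while the versions, the annotation release and the use of strand were not given in the sources used here. Columns were matched to samples by the name in each title, and groups and replicate numbers came from the titles. Estimated counts were rounded to whole numbers and filtered by edgeR's filterByExpr, which kept 14785 of 58870 genes with 99.88% to 99.89% of the counts. edgeR 4.0.16 (R 4.3.3) fitted all 8 libraries with TMM factors and the group as the only term. The fitting code was tried on simulated counts with the same spread setting for every gene and few changed genes. That setting is simpler than these data, so it does not vouch for calls near the threshold. SE is the absolute log2 fold change divided by the square root of F, and 95% intervals use the fit's degrees of freedom. Alternatives were DESeq2 1.42.0, limma 3.58.1 (voom), other scaling factors, other filters, a replicate block, and fits that each dropped 1 library. No 2 libraries agreed within sampling noise. The rule for named genes was to give all 10 members and ADRA2A, and any member of the family and partner lists after the counts of its list. BX470102.2 was named after its values were seen. One gene of the planned partner list is not reported here and was left out of its counts, and 1 neighbour of the cluster is not reported by itself. The members and lists were chosen with earlier results of these data known, and the comparison of member pairs was chosen after seeing the data. Of the genes in the table, 58517 matched GENCODE release 44. Promoter windows were found for 10 of 10 members in RefSeq at the start of the MANE Select transcript. Coding sequences were aligned with Biopython 1.88 and exact tests used SciPy 1.17.1.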

Additional observations from a re-analysis of the deposited data

Results flagged for a closer look

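In 64 groups of 4 values (the tested members, family genes and partners in each group, the S100A10 to ANXA2 ratio and the summed level), 4 had 1 library set apart from the other 3 by a gap above Dixon's 95% critical value. Chance gives about 1 in 20. S100A2 in empty-vector replicate 1 was at 11.5 CPM, against 14.5 to 15.1 CPM in the other 3, and its log2 fold change was -1.45 without that library. The other 3 were partners. ANXA6 was at 20.7 CPM in ADRA2A replicate 1 (24.1 to 24.2 CPM in the others). CACYBP was at 91.5 CPM in ADRA2A replicate 4 (104 to 105 CPM). EZR was at 1789.9 CPM in empty-vector replicate 2 (1682 to 1696 CPM).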

How the results depend on the processing

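The 4 falls (S100A2, S100A6, S100A14 and S100A16) kept their direction and an adjusted p under 0.05 in all 15 alternative fits, with log2 fold changes of -1.45 to -1.32 for S100A2 and -0.15 to -0.11 for S100A16. The call of S100A11 as higher was lost with upper quartile factors (0.078, 0 members higher), and over the fits without 1 library its log2 fold change was 0.069 to 0.12, with 0 to 1 members called higher. S100A10 ranged from -0.11 to -0.046 when 1 library was left out. With no filter 1 other family gene was called higher, and 0 to 1 without 1 library each. The count of genes past a 2-fold change was 689, but 1057 with no filter and 336 at a mean of at least 50 counts, since these filters keep more or fewer low genes. The S100A10 to ANXA2 ratio difference of 0.03 lay between -0.0014 (without ADRA2A replicate 2) and 0.047; apart from the filters, the cause of these shifts was not tested. Over all genes tested, correlations between same-numbered libraries were -0.04 to 0.07, and 2 of 8 libraries correlated best with their own number. No pairing was seen over all genes, and pairing in single genes was not tested. With the replicate number as a block, 6400 genes were called in place of 6314, with 4 members lower and 1 higher. The ratio difference was then 0.03 (exact sign permutation p = 0.25). The block gave smaller SEs for the tested members except S100A2 and S100P, such as 0.032 in place of 0.042 for S100A6. The planned S100A8 to S100A9 ratio gave no value because S100A8 had 0 counts, and S100P had too few counts for the filter at a mean of 50. Depth limits S100A8 and S100A9, which could not be tested. Of the 21 tested partners, 7 to 9 were lower and 3 to 6 higher without 1 library each, and 8 to 9 lower and 4 to 5 higher under the other settings.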
